A study of Mus musculus with 107 samples.

Results

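Trap1a, Rhox5, Dazl, Sycp3, Tex101, Mael, Asz1 and Dppa3 are 8 genes known from germ cells and early embryos, and each was matched by symbol to 1 identifier among the 27179 genes counted. Trap1a was chosen by its own CPM in these libraries, which was high in embryonic stem cells (ESC) and in 1 culture of neural progenitor cells (NPC) and low elsewhere, so its levels are given as a description with no test. The other 7 genes were followed to see whether they shared that pattern. The measurements are of RNA bound to HA-tagged ribosomes in 107 libraries of 23 groups.

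All cells and mice were C57BL/6. The ESC line, the cells made from it and the host astrocytes carried the RiboTag allele, an HA tag on the ribosomal protein Rpl22 that Cre switches on, while the mice that received grafts are not said to carry it. The ESC (n = 4) were 1 female line, tagged through SOX2-cre, and all NPC and grafts descended from it. NPC were derived 3 times through embryoid bodies with retinoic acid and purmorphamine, and were kept in EGF and FGF at 100 ng/ml. The first derivation was sampled at passages 5, 15 and 30 (NPC P5, NPC P15 and NPC P30, n = 4 each), and the others at passage 15 (NPC P15 D2, n = 6, and NPC P15 D3, n = 4). NPC were differentiated for 4 days (n = 4 per condition) by lowering EGF and FGF to 1 ng/ml, alone (SPONT), with CNTF or IGF-1 at 100 ng/ml, with fetal bovine serum (FBS) at 1, 5, 10 or 20%, or with CNTF and 5% FBS. Pipetted NPC (n = 5 per condition) were in media, in a polypeptide hydrogel (DCH), or in DCH for 4 h. NPC grafts in mouse spinal cord (n = 5 mice per condition) were placed 2 days after crush injury (SCI) or double crush (dSCI), or into uninjured cord. They were recovered at 14 days, which is counted from grafting in some passages of the paper and from injury in another, or, for a further SCI group, 5 days after grafting. Host astrocytes were tagged in 73.12 GFAP-Cre RiboTag mice, which marks cells in which that Gfap promoter is or has been active, and came from healthy cord (n = 9) or from cord 14 days after SCI (n = 5). Mice were female and male and between 8 weeks and 4 months old. The paper says of its culture experiments in general that they were repeated in different cell stocks with independent biological replicates, but not which of these libraries came from separate stocks or derivations, so that p-values between cultures measure the spread between these libraries.

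Counts per library summed to 30473157–147764968 in 96 libraries whose count headers name 2 read data sets, here called paired. They summed to 12286240–18085106 in the 11 libraries of NPC P15 D2 and graft SCI 5 d, whose headers name 1, here called single-read. The paper's methods give paired-end reads, so this naming rests on the headers. Read type and group cannot be told apart there. A count of 3, taken as the floor, was worth 0.0203–0.0984 CPM (the count relative to the library total) in the paired libraries. In the single-read libraries it was worth 0.166–0.244 CPM. Summed over 10 ESC markers, ESC libraries held 5951–6420 CPM and NPC cultures 4.69–22.3 CPM, and over 8 NPC markers they held 834–881 and 3062–4632 CPM. Summed over 6 astrocyte markers, host libraries held 23959–40287 CPM, beside 4707–33358 CPM of 3 oligodendrocyte markers.

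Genes used by germ cells are switched off in most body cells, and many are known to be held silent there by methylation of CpG dinucleotides at their promoters. DNMT enzymes add this mark and TET enzymes help to remove it, and its loss is known to allow such genes to be transcribed in some cultured and cancer cells. Trap1a encodes the P1A antigen of a mouse mast cell tumour and is counted among the cancer-testis antigens, and Rhox5 is a homeobox gene of the reproductive cluster on the X chromosome. Dazl is an RNA-binding protein of germ cells, Sycp3 a part of the meiotic synaptonemal complex and Tex101 a surface protein of germ cells. Mael and Asz1 act in the piRNA pathway, which keeps transposons silent. Dppa3 (Stella) protects the methylation of the early embryo and is also made by ESC. DNA methylation itself was not measured in these libraries.

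The sequences around the starts of 5 of the genes are shown for their CpG dinucleotides, the site of methylation. Each window runs from 250 bases before to 50 bases after the gene's start in the RefSeq annotation of GRCm38.p6, 5′ to 3′, with every CpG in capitals. The windows are chrX:139333433-139333732 on the plus strand for Trap1a, chrX:37754358-37754657 on the plus strand for Rhox5, chr17:50293571-50293870 on the minus strand for Dazl, chr1:166238695-166238994 on the minus strand for Mael and chr10:88459337-88459636 on the plus strand for Sycp3.
Trap1a: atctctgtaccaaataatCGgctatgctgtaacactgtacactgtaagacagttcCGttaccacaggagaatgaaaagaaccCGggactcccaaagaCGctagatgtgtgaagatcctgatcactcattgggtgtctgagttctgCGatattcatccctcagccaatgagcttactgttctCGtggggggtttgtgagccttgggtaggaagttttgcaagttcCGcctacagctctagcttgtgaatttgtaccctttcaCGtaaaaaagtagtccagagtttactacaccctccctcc
Rhox5: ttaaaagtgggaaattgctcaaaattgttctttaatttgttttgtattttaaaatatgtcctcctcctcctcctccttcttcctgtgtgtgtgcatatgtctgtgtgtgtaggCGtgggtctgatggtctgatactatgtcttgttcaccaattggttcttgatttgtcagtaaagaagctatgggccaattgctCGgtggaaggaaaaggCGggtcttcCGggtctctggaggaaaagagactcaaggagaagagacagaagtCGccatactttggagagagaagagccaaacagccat
Dazl: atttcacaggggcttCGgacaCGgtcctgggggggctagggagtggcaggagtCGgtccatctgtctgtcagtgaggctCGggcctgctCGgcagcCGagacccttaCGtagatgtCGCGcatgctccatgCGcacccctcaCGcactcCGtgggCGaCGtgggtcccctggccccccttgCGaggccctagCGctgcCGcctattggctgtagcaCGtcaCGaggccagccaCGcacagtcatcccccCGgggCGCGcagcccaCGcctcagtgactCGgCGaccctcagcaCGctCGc
Mael: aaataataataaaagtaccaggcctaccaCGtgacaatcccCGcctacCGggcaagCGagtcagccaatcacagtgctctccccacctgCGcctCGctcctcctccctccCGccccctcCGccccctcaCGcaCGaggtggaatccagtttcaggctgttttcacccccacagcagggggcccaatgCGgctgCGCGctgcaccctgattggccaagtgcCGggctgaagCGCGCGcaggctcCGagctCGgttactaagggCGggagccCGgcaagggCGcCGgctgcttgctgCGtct
Sycp3: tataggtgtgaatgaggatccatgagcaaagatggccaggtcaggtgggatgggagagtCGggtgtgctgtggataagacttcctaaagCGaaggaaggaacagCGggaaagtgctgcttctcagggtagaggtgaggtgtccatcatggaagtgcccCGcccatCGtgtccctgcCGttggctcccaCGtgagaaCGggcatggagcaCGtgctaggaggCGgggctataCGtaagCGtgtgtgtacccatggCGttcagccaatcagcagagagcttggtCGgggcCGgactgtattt
Trap1a held 8 CpG in its window and Rhox5 held 5, against a median of 7 and quartiles of 3 and 20 over 32851 such windows of 27025 genes. Dazl held 28, Mael 24 and Sycp3 15, and the windows of Tex101 (19) and Asz1 (17) also lay above that median. Dppa3 was matched to no window. The letters CACGTG, searched on both strands, stood in the Sycp3 and Mael windows and in 7.15% of all windows. The letters TCCCGC, searched on both strands and not overlapping the former, stood in the same 2 windows and in 20.0% of all.

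Trap1a (chromosome X, 139333683–139338169) was at 178, 198, 182 and 194.4 CPM in the 4 ESC libraries and at 211, 225, 215 and 213 CPM in the 4 NPC P15 libraries. In NPC P5 it was at 0.789, 0, 0.684 and 0.826 CPM, and in NPC P30 at 0.0135, 0.0656, 0.0575 and 0.0287 CPM. The progenitors of the first derivation were thus near the stem cells at passage 15, and far below them at the earlier and the later passage. The NPC P15 mean of 216 ± 6.30 CPM (SD, n = 4) was 1.15 times the ESC mean of 188 ± 9.53 CPM (SD, n = 4) and 375 times the NPC P5 mean. The NPC P30 libraries held only 2, 2, 4 and 2 counts, too few for a ratio. On the TMM scale, which allows for composition, NPC P15 averaged 194.2 CPM and ESC 184 CPM. No read of Trap1a was counted in any of the 6 NPC P15 D2 libraries, which puts NPC P15 at least 969-fold higher against the floor of 3 counts in the shallowest of them. The 4 NPC P15 D3 libraries held 0, 0, 0.0164 and 0.0377 CPM, all at or under 3 counts, so that NPC P15 was at least 3645-fold higher. Outside ESC and the first derivation, no library held more than 0.142 CPM, and 67 of the 107 libraries held no read of Trap1a.

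**Figure D1:**
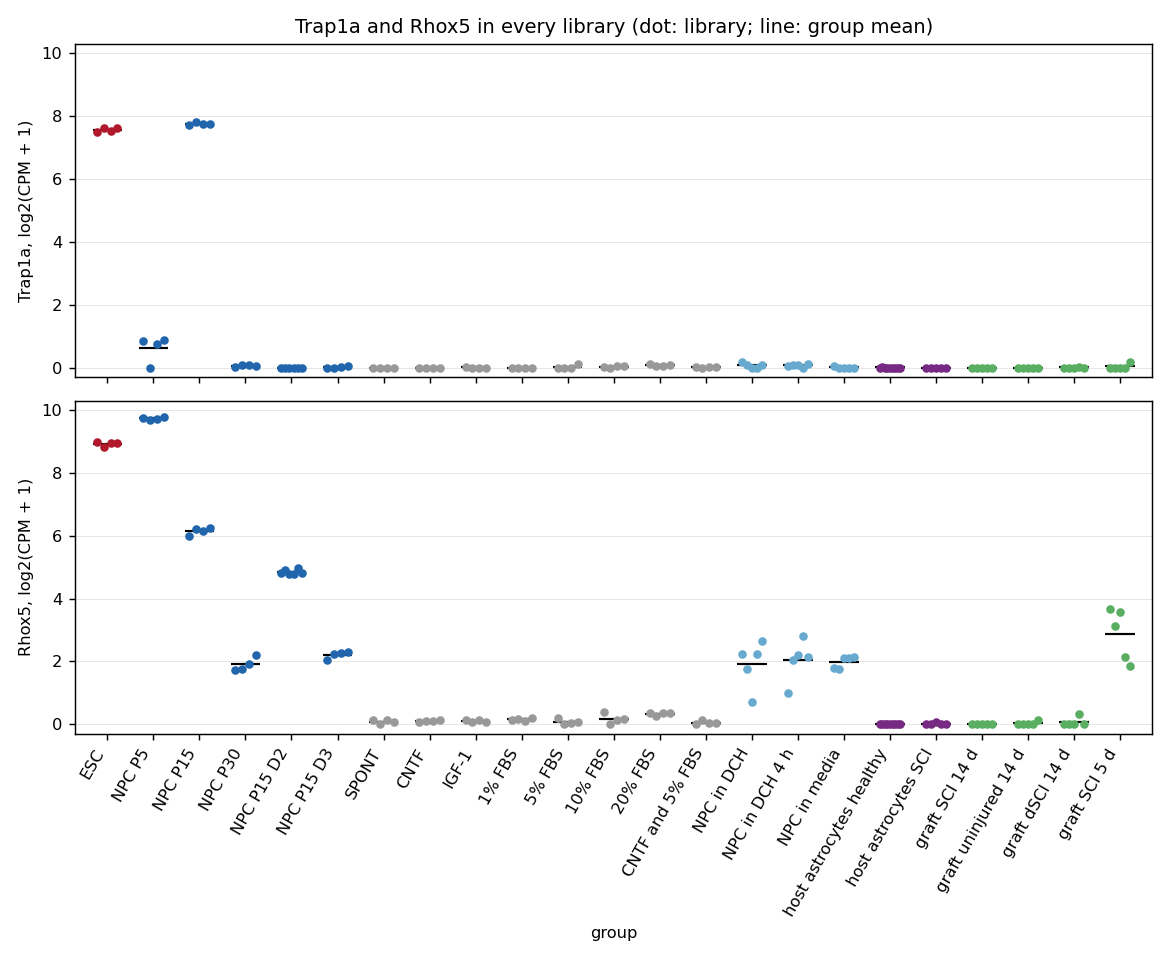
Levels of Trap1a and Rhox5 as log2(CPM + 1) on the vertical axes, with the 23 groups on the horizontal axis. Each dot is a library and each line the mean of its group on that scale. Trap1a is high in ESC and NPC P15 alone, at 178–225 CPM, while Rhox5 is highest in NPC P5, at 825–887 CPM, and is above 2 CPM in every library of ESC and of the 5 NPC cultures.

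The search for other genes with this pattern found none. A gene shared it if it had at least 1 CPM in each of the 8 ESC and NPC P15 libraries and there at least 4 times its highest level in the other 99 libraries. Of 10396 genes that reached 1 CPM in all 8 libraries, Trap1a was the 1 gene that met the second part. The count was again 1 with a factor of 2, with a factor of 10 and with a minimum of 0.1 CPM. Since Trap1a was chosen for the pattern, that count is a description.

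Genes whose mean level over the 23 groups was most like that of Trap1a were at a small share of its level, with the exceptions of Mycn and Kcmf1. Over 16454 genes, Foxe1 (a forkhead transcription factor) had the highest Pearson r of group means as log2(CPM + 1), 0.886, with 4.29 CPM in ESC and 0.993 CPM in NPC P15. It was followed by Mesp2 (0.875), Rgs9bp (0.870), Pdx1 (0.865), Zfp607a (0.826), Trp73 (0.817) and Platr26 (0.813). Gm6579 (0.797), Rab17 (0.795), Nlrp6 (0.791), Zglp1 (0.778) and Zfp618 (0.777) were also among the 15 nearest. Mycn, a transcription factor of growing progenitors, was at 224 CPM in ESC but 9.42 CPM in NPC P15. Kcmf1 (0.776), an E3 ubiquitin ligase, came closest in level, at 133 CPM in ESC and 108 CPM in NPC P15, but was also at 87.9 CPM in NPC P30. Among the other germline genes, Dppa3 (r = 0.675), Tex101 (0.673), Dazl (0.668), Mael (0.665) and Rhox5 (0.654) ranked 299 to 467, and Sycp3 (0.116) ranked 6210. These correlations rest on 23 group means that share the same ESC and NPC P15 libraries, and Asz1 has none.

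Rhox5 (chromosome X, 37754608–37808878) was also high in progenitors of the first derivation, but peaked at another passage. It was at 506, 459, 495 and 500 CPM in ESC, and higher, at 865, 825, 848 and 887 CPM, in NPC P5. At passage 15 it was at 63.2, 72.8, 70.1 and 74.4 CPM in NPC P15, and at passage 30 at 2.35, 2.40, 2.80 and 3.63 CPM. The 3 passages did not overlap one another or ESC. The other derivations at passage 15 held 27.0, 29.2, 26.3, 26.6, 30.4 and 27.4 CPM in NPC P15 D2 and 3.11, 3.75, 3.86 and 3.88 CPM in NPC P15 D3. The 3 derivations at the same passage did not overlap either, and NPC P30 and NPC P15 D3 were the neighbours in this order whose libraries did overlap.

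The 5 comparisons of NPC with ESC share the same ESC libraries, and called a large share of all genes by edgeR's quasi-likelihood test at a Benjamini-Hochberg adjusted p below 0.01. That share was 67.1% in NPC P5, 67.2% in NPC P15, 67.9% in NPC P30, 80.6% in NPC P15 D2 and 69.5% in NPC P15 D3. Rhox5 was higher in NPC P5 than in ESC (log2 fold change 0.68, SE 0.04, adjusted p = 3.2e-08 by edgeR), a ratio of means of 1.75. In NPC P15 it was lower than in ESC (log2 fold change −2.89, SE 0.06, adjusted p = 6.5e-12 by edgeR). It was lower still in NPC P15 D2 (−4.29, SE 0.05), NPC P15 D3 (−7.16, SE 0.10) and NPC P30 (−7.55, SE 0.13), with an edgeR adjusted p of at most 2e-12 in each.

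Direct comparisons of NPC P15 with the other cultures share its 4 libraries. They called 35.5% of all genes against NPC P5, 30.0% against NPC P30, 55.9% against NPC P15 D2 and 48.0% against NPC P15 D3. Rhox5 passed the filter on low counts in all 4 and no other tested gene of the 8 did. It was lower in NPC P15 than in NPC P5 (log2 fold change −3.60, SE 0.05, edgeR adjusted p = 4.2e-22). Against the other 3 it was higher, by 4.68 (SE 0.14) over NPC P30, 1.33 (SE 0.07) over NPC P15 D2 and 4.21 (SE 0.11) over NPC P15 D3 on the log2 scale, with edgeR adjusted p of 1.5e-16, 1.5e-12 and 2.9e-11. Trap1a and Rhox5, both on the X chromosome, thus had their NPC maximum at different passages of the first derivation.

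Dazl, Mael, Tex101 and Dppa3 were present in ESC and at or under the floor in every NPC culture, so none of them shared the pattern of Trap1a. Dppa3 (chromosome 6, 122626424–122630271), the embryo factor, was at 38.6, 38.5, 40.2 and 42.3 CPM in ESC and had no read in the 22 libraries of the 5 NPC cultures. Mael (chromosome 1, 166201385–166238744) was at 9.38, 6.70, 8.25 and 8.88 CPM in ESC, and 1 NPC library, of NPC P30, held 2 counts of it. Dazl (chromosome 17, 50279393–50293620) was at 7.06, 10.9, 7.34 and 5.35 CPM in ESC, and 1 NPC library, of NPC P15 D3, held 2 counts. In each of these 3 genes all ESC libraries lay above all NPC libraries. Tex101 (chromosome 7, 24668012–24672050) was lowest, at 2.48, 0.923, 1.37 and 2.21 CPM in ESC, and no NPC library held more than 3 counts of it.

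Against the floor of 3 counts per library, ESC was at least 592-fold higher than NPC P15 for Dppa3, 123-fold for Mael, 114-fold for Dazl and 25.9-fold for Tex101. The lowest bounds were those against NPC P15 D2, the shallowest group, with 179-fold for Dppa3, 37.3-fold for Mael, 34.4-fold for Dazl and 7.84-fold for Tex101. All 4 genes were called lower in each of the 5 NPC cultures, with edgeR adjusted p from 3.7e-11 to 7.3e-05. Over all genes tested, 34.6% were called lower in NPC P5, 34.9% in NPC P15, 34.0% in NPC P30, 42.9% in NPC P15 D2 and 36.6% in NPC P15 D3. The 4 genes passed the filter on low counts through ESC alone and so had to differ. Asz1 (chromosome 6, 18050964–18109061), the partner of Mael in the piRNA pathway, passed no filter. A single library of 10% FBS held 2 counts of it (0.0258 CPM), and the other 106 libraries held 0, so that its level was not detectable at this depth in ESC or elsewhere.

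**Figure D2:**
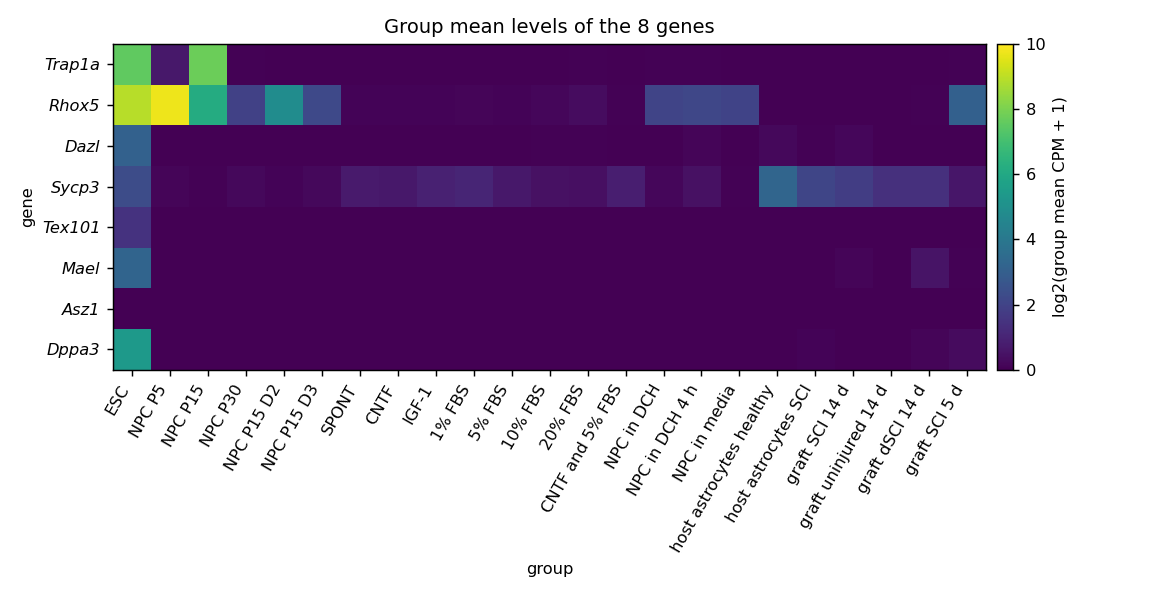
Group mean levels of the 8 genes as log2(mean CPM + 1), shown by colour, with genes in rows and the 23 groups in columns. Trap1a is bright in ESC and NPC P15, and Dazl, Tex101, Mael and Dppa3 are highest in ESC, with Tex101 faint (1.75 CPM). Rhox5 runs from 856 CPM in NPC P5 to 2.79 CPM in NPC P30 among the NPC cultures. It is also seen in ESC, pipetted NPC and graft SCI 5 d (7.28 CPM). Sycp3 is brightest in healthy host astrocytes (8.61 CPM).

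Sycp3 (chromosome 10, 88459587–88473236) was low in NPC and was measured in astrocytes. It was at 4.51, 4.26, 3.35 and 3.95 CPM in ESC, and at 0–0.330 CPM in the 22 libraries of the 5 NPC cultures, below every ESC library. Pipetted NPC held 0–0.123 CPM in media, 0–0.317 CPM in DCH and 0.645, 0.359, 0, 0 and 0.804 CPM after 4 h in DCH. It was called lower in each NPC culture, with log2 fold changes of −5.48 (SE 0.97) in NPC P5, −6.19 (SE 0.96) in NPC P15, −4.80 (SE 0.64) in NPC P30 and −4.60 (SE 0.38) in NPC P15 D3. NPC P15 D2 was wholly at or under 3 counts, so ESC was at least 18.0-fold higher there. The edgeR adjusted p ran from 5.5e-09 to 3.5e-04 over the 5 comparisons. Sycp3 passed the filter on low counts there through ESC and so had to differ. It did not pass that filter between NPC P15 and the other NPC cultures.

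After 4 days of differentiation Sycp3 was at 0.729, 0.659, 0.531 and 0.664 CPM in SPONT, above all libraries of the 5 NPC cultures but within the range of the NPC kept 4 h in DCH. The comparisons of differentiated cultures share the SPONT libraries, and called 19.9% of all genes with CNTF, 6.55% with IGF-1, 8.78% with 1% FBS and 55.5% with 20% FBS. With CNTF, a cytokine that drives astrocyte differentiation, Sycp3 was at 0.507–0.637 CPM and overlapped SPONT (edgeR adjusted p = 0.61). With IGF-1 it was at 0.797–0.936 CPM (log2 fold change 0.49, SE 0.21, adjusted p = 0.10) and with 1% FBS at 0.883–1.31 CPM (0.71, SE 0.23, adjusted p = 0.050, both by edgeR). Neither overlapped SPONT and neither was called. With 20% FBS it was at 0.226–0.399 CPM, lower than in SPONT (log2 fold change −1.09, SE 0.29, edgeR adjusted p = 0.0065). That call was lost with no filter on low counts (0.012), with the replicate number as a block (0.020) and on leaving out 6 of the 8 libraries in turn, while the groups did not overlap.

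In the spinal cord, Sycp3 was at 6.39–12.0 CPM (median 9.02) in the 9 libraries of healthy host astrocytes. After SCI the 5 libraries held 3.01, 2.08, 2.38, 4.17 and 4.58 CPM, and every one was below every healthy library. The means were 8.61 CPM and 3.25 CPM, and Sycp3 was called lower after SCI (log2 fold change −1.58, SE 0.22, edgeR adjusted p = 1e-05) among 41.1% of all genes called. In bulk libraries like these, fewer cells of a type and less RNA per cell cannot be told apart. Other cell types moved with the injury. The summed myeloid markers went from 7.62–15.8 to 62.3–229 CPM, fibroblast markers from 35.6–65.0 to 311–589 CPM, oligodendrocyte markers from 4707–10248 to 19482–33358 CPM and neuron markers from 127–197 to 9.63–105 CPM, with all 15 markers above 0 in both groups, and their part in the fall of Sycp3 was not tested. The astrocyte markers overlapped, at 32394–40287 CPM and 23959–40132 CPM.

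The healthy group also differed within itself in Xist, the RNA of the inactive X chromosome. Xist was at 0–0.0492 CPM in 7 healthy libraries and at 2.65–2.85 CPM in the other 2, against 3.78–6.16 CPM in the 5 libraries after SCI. Sycp3 was at 6.39–12.0 CPM in those 7 and at 9.02–9.52 CPM in those 2. Against the 2 healthy libraries with Xist alone, a choice made after seeing the data, Sycp3 was again lower after SCI (log2 fold change −1.75, SE 0.33, edgeR adjusted p = 0.0048).

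Grafts recovered from the cord held Sycp3 as well, with wide spread. It was at 2.69, 1.96, 1.47, 4.99 and 1.28 CPM in graft SCI 14 d, at 0.0117, 2.05, 2.44, 2.19 and 1.34 CPM in uninjured cord, and at 1.63, 2.21, 3.17, 0.837 and 0.383 CPM after dSCI. The 14-day comparisons share the uninjured grafts and called 4.64% of genes for SCI and 4.19% for dSCI, and Sycp3 was in neither (edgeR adjusted p of 0.64 and 0.95, with overlapping groups). NPC in media held 0, 0.123, 0, 0 and 0.113 CPM. These, and the NPC in DCH, the kind of carrier in which cells were grafted into SCI, were below every library of graft SCI 14 d. The difference from NPC in media was called (log2 fold change 6.00, SE 1.37, edgeR adjusted p = 0.0020) among 52.5% of all genes, but Sycp3 passed the filter on low counts there through the grafts alone and so had to differ. Over the same comparison the summed astrocyte markers stood at 1166–1258 CPM in NPC in media and 10551–22499 CPM in graft SCI 14 d, and myeloid markers at 0.0783–0.499 and 107–484 CPM. Xist, at no more than 0.157 CPM in NPC in media, was at 12.5–122 CPM in graft SCI 14 d, 10.6–65.0 CPM in uninjured cord and 26.4–117 CPM after dSCI. Host astrocyte libraries held no more than 6.16 CPM of Xist, so its level in the grafts does not measure host astrocyte reads. The share of the Sycp3 reads in grafts that came from host cells, which held up to 12.0 CPM in the healthy cord, was not tested.

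**Figure D3:**
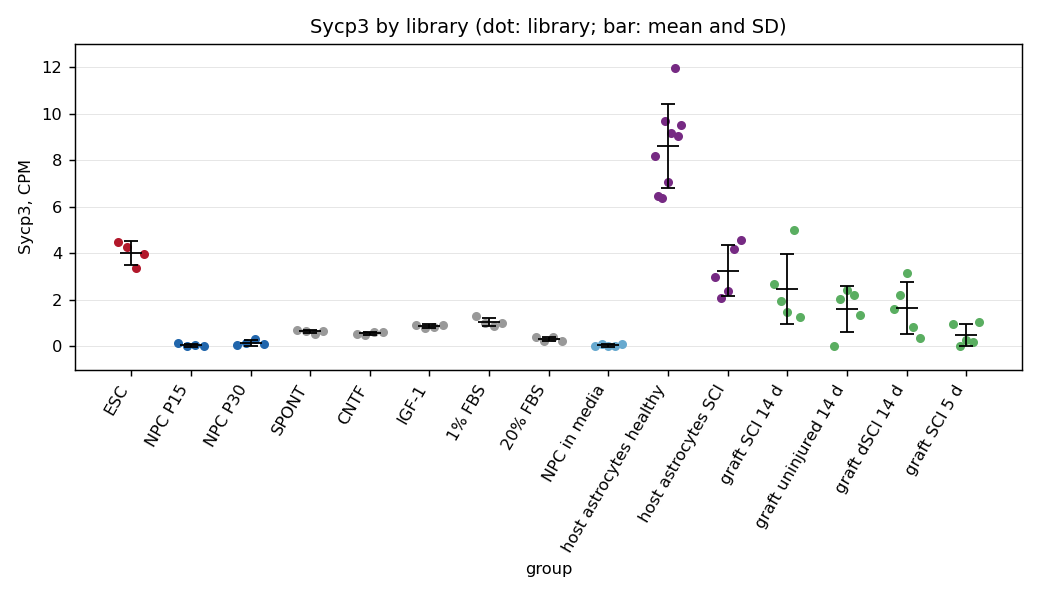
Sycp3 in CPM on the vertical axis in 15 groups, with each library as a dot and the mean and SD of the group in black. Healthy host astrocytes, at 6.39–12.0 CPM, lie above the libraries after SCI, at 2.08–4.58 CPM, and the NPC cultures lie near 0.

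Rhox5 was measured in undifferentiated cells and in early grafts, and was near or at 0 in differentiated cells. The derivation and passage that preceded the pipetted, differentiated and grafted cells are not given in the sources used here, and Rhox5 differed widely among NPC cultures. Pipetted NPC held 2.50, 2.39, 3.33, 3.32 and 3.41 CPM in media, 3.69, 2.36, 0.623, 3.77 and 5.33 CPM in DCH, and 0.986, 3.09, 3.58, 5.96 and 3.46 CPM after 4 h in DCH, and these overlapped. No differentiated library held more than 0.299 CPM. With 20% FBS Rhox5 was at 0.198–0.295 CPM against 0–0.103 CPM in SPONT, which was called (log2 fold change 1.96, SE 0.54, edgeR adjusted p = 0.0081). Rhox5 passed the filter on low counts in that comparison through the 20% FBS libraries alone, so that the direction of the difference was fixed. The call was lost with no filter on low counts (0.016), with the replicate block (0.014) and on leaving out 7 of the 8 libraries in turn. Grafts recovered 5 days after grafting held 11.7, 7.83, 10.9, 3.38 and 2.62 CPM, and graft SCI 14 d held no read. The means of the other grafts were 0.0201 CPM in uninjured cord and 0.0493 CPM after dSCI. Against the floor, graft SCI 14 d was at least 98.3-fold lower than graft SCI 5 d (edgeR adjusted p = 5.7e-04), among 5.3% of all genes called. The call was lost with the replicate block (0.0101). Rhox5 passed the filter there through the 5-day grafts alone and so had to differ. By their headers the 5-day grafts are single-read and the 14-day grafts paired, so time and read type cannot be told apart there. Host astrocytes held no read of Rhox5 in 13 of 14 libraries and 0.0512 CPM in the other.

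Single grafts held the remaining genes at low levels. Mael was at 1.37 CPM in dSCI replicate 1 and 0.874 CPM in replicate 4, and at 0.461 CPM in graft SCI 14 d replicate 3, where Dazl was at 0.593 CPM. Dppa3 was at 0.835 CPM in graft SCI 5 d replicate 3 and 0.517 CPM in dSCI replicate 4. The other libraries of those groups were mostly at 0, and no group mean of these 3 genes reached 1 CPM outside ESC. In host astrocytes Dazl was at 0–0.365 CPM in healthy cord and 0–0.195 CPM after SCI (log2 fold change −2.03, SE 1.08, edgeR adjusted p = 0.13).

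Most genes of the wider germline set were called lower in NPC than in ESC, and none shared the pattern of Trap1a. Of 60 other germline genes, 44 had a mean of at least 1 CPM in ESC, and 31 of these were under 1 CPM in all 5 NPC cultures. Of the 44, 18 were under 0.1 CPM in all 5. In NPC P15, 10 of the 60 reached a mean of 1 CPM. In NPC P15 against ESC, 40 of the 47 that could be tested were lower and 1 was higher, beside 34.9% of all genes called lower. Their median log2 fold change was −8.58, beside −0.10 over all genes tested. The counts in the other cultures were close to these, at 38 to 40 lower and 1 or 2 higher of 45 to 48 tested. Of all genes, 34.0 to 42.9% were called lower there. Many of those tested passed the filter through ESC alone and had to differ. Tex19.1, which acts in transposon control, went from 88.7 CPM in ESC to 0 in NPC P15, Dmrt1, a regulator of testis development, from 64.8 CPM to 0, and Rpl10l, Rnf17 and Tuba3a from 33.7–38.1 CPM to 0. Ddx25, a helicase of the testis, was the 1 that was higher in NPC P15 (8.09 CPM in ESC, 17.9 CPM in NPC P15, log2 fold change 1.06, SE 0.22, edgeR adjusted p = 0.0010). Summed over 9 germ cell markers such as Ddx4, ESC held 99.6–112 CPM and NPC P15 1.33–7.48 CPM.

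Between NPC P15 and the other NPC cultures, most of these genes were not called. Syce2, of the synaptonemal complex, was the 1 gene of the list that was higher in NPC P15, at 31.3 CPM, than in NPC P5 (23.8 CPM), NPC P30 (18.4 CPM) and NPC P15 D2 (12.4 CPM), and it was lower than in NPC P15 D3 (41.4 CPM). Against NPC P15 D3 the 1 gene that was higher was Meioc, a factor of meiotic prophase, at 1.06 against 0.170 CPM (log2 fold change 2.58, SE 0.71, edgeR adjusted p = 0.0067). Those lower in NPC P15 numbered 3 of 18 tested against NPC P5, 3 of 15 against NPC P30, 4 of 11 against NPC P15 D2 and 5 of 14 against NPC P15 D3, beside 35.5, 30.0, 55.9 and 48.0% of all genes called in either direction.

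**Figure D4:**
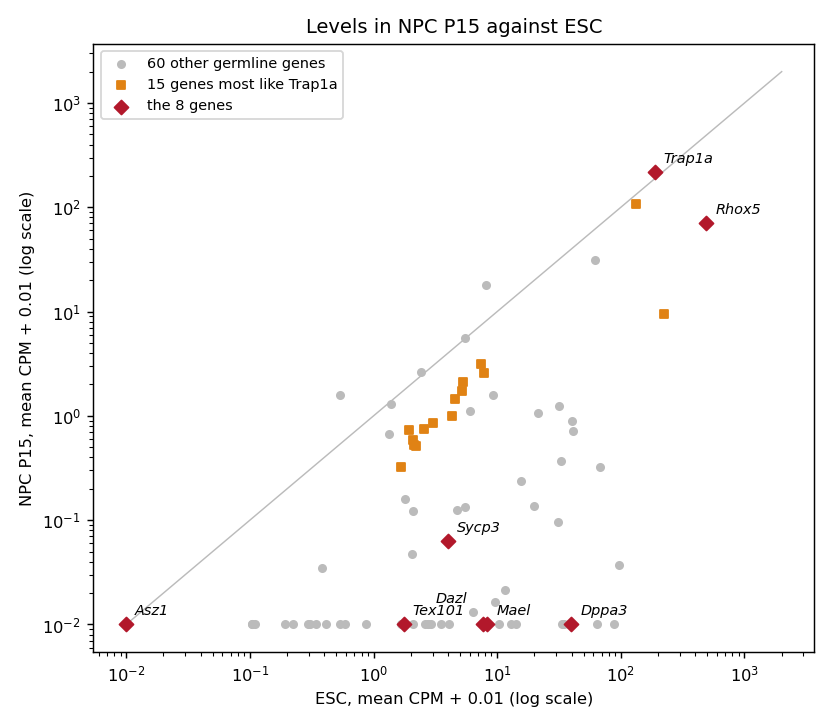
Mean CPM plus an offset of 0.01 in NPC P15 (vertical) against ESC (horizontal), both on log scales, for the 8 genes (red diamonds), 60 other germline genes (grey dots) and the 15 genes most like Trap1a (orange squares). The grey line marks equal levels. Trap1a lies just above the line at 188 and 216 CPM, Rhox5 below it, and Dazl, Mael, Tex101 and Dppa3 on the floor of the plot.

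The enzymes that write and read methylation were also compared, from a list of 36 genes of the silencing machinery. In NPC P15 against ESC 22 were lower and 8 higher of 36 tested, beside 67.2% of all genes called and 34.9% called lower. Dnmt3l, the cofactor of new methylation, went from 1125 CPM in ESC to 0.204 CPM, the enzyme Dnmt3b from 550 CPM to 4.50 CPM (log2 fold change −7.05) and Morc1, which acts in transposon silencing, from 72.7 CPM to 0. Tet3, an enzyme of demethylation, went from 7.11 CPM to 220 CPM (log2 fold change 4.87). The other cultures had 23 to 26 lower and 7 to 9 higher.

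Between NPC P15 and the other NPC cultures, the calls were fewer. Against NPC P5, 6 were higher and 6 lower of 34 tested, a share near the 35.5% of all genes called, so that the count says nothing about the list. The largest difference up was that of Tet3 (220 against 117 CPM, log2 fold change 0.93, SE 0.06, edgeR adjusted p = 9.5e-11). Dnmt1, which copies methylation at replication, was higher than in NPC P5 by 0.33 (SE 0.04), at 353 against 285 CPM. Dnmt3a was lower by −0.21 (SE 0.05), at 191 against 223 CPM. Against NPC P30, 7 were higher and 1 lower of 35, against NPC P15 D2 7 and 7 of 34, and against NPC P15 D3 14 and 4 of 34, beside 30.0, 55.9 and 48.0% of all genes. Tet3 was at 191.9 CPM in NPC P30, 154 in NPC P15 D2 and 83.9 in NPC P15 D3.

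Since Trap1a and Rhox5 are X-linked, the X chromosome was examined as a whole. Xist was at 0.0313–0.402 CPM in the female ESC and at no more than 0.385 CPM in any NPC culture. Of 5 genes of the X inactivation centre, 4 were tested in NPC P15 against ESC and 2 were lower, beside 34.9% of all genes. These were Tsix, from 0.463 CPM to 0, and Rlim, from 151 to 132 CPM. Tsix passed the filter on low counts through ESC alone and so had to differ. No gene of the centre was called in NPC P15 against NPC P5, NPC P30 or NPC P15 D3 and 1, Rlim, was lower than in NPC P15 D2. X-linked genes had median log2 fold changes in NPC P15 of −0.05 against NPC P5, −0.05 against NPC P30, −0.14 against NPC P15 D2 and −0.12 against NPC P15 D3, over 455–485 genes, beside −0.02 to 0.01 over all genes. Against ESC, their medians in the 5 NPC cultures were 0.27 to 0.50 over 488–527 genes, beside −0.10 to −0.02 over all genes.

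Genes near Trap1a on the chromosome did not share its pattern. Of 17 genes that start within 1 Mb of it, 7 had at least 1 CPM in ESC and 6 in NPC P15. Morc4, 487952 bases away, was at 12.1 CPM in ESC and 43.3 CPM in NPC P15, and was called in none of the 4 comparisons of NPC P15 with other NPC (edgeR adjusted p from 0.036 to 0.69). Rbm41, at 4.79 and 19.7 CPM, was called in none either. Ripply1 was at 2.47 CPM in ESC and 0.00323 CPM in NPC P15, Tbc1d8b at 0.390 and 12.1 CPM and Cldn2 at 0.00699 and 0.00775 CPM. Around Rhox5, in a cluster of related genes among which reads may be split, 60 genes start within 1 Mb, and 19 of them had no read in any library.

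A pair of other X-linked testis genes, Fmr1nb and Tex13b, had their highest NPC level in a culture other than NPC P15. Of 53 on the list 43 reached 1 CPM in no group, and none did in NPC P15. In NPC P15 against ESC 9 of the 11 tested were lower and 0 higher by edgeR, beside 34.9% of all genes called lower. In the other NPC cultures 7 to 9 of 7 to 10 were lower, beside 34.0 to 42.9% of all genes, and 1 was higher in NPC P30. Those that passed the filter on low counts through ESC alone had to be lower, so these counts say little about the list. Fmr1nb, a cancer-testis antigen, was at 9.02–12.7 CPM in ESC, 2.76–3.84 CPM in NPC P5 and no more than 0.484 CPM in any other NPC library. Tex13b was at 1.18–3.10 CPM in ESC and at 5.15–12.7 CPM in NPC P30, with no read in NPC P15, NPC P15 D2 or NPC P15 D3. Tex13b was also at 6.09–18.5 CPM in the 15 libraries of pipetted NPC, and had no read in any graft. Both genes are named for being high in 1 culture, so no test is given.

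**Figure D5:**
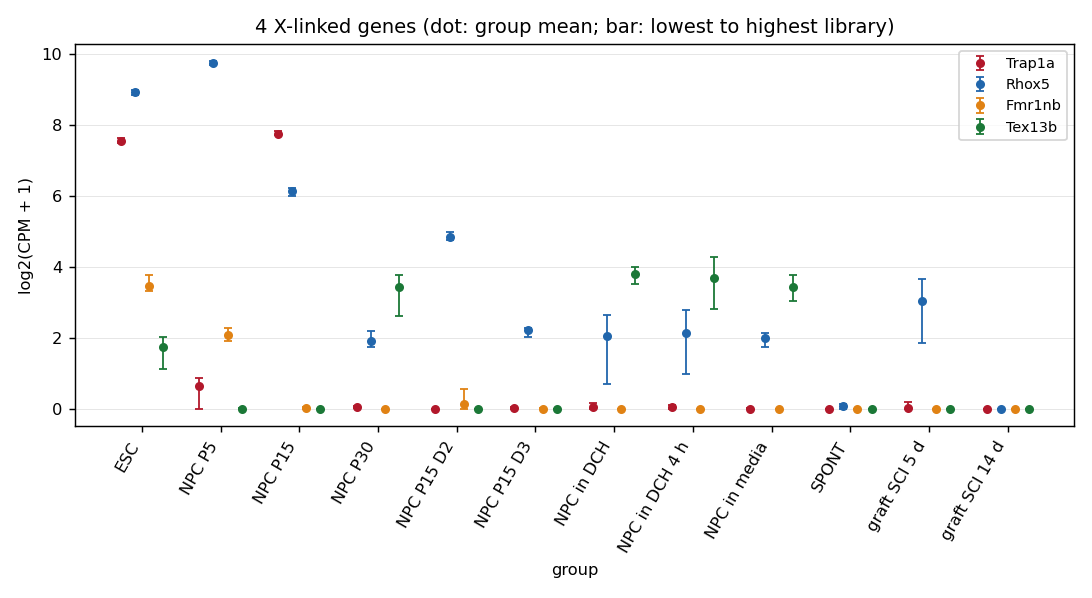
Mean levels of Trap1a, Rhox5, Fmr1nb and Tex13b as log2(CPM + 1) in 12 groups, with bars from the lowest to the highest library. Trap1a stands out in NPC P15 (211–225 CPM), Rhox5 and Fmr1nb in NPC P5 (825–887 and 2.76–3.84 CPM), and Tex13b in NPC P30 and pipetted NPC (5.15–18.5 CPM).

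Counted over all genes, few were held by 1 NPC culture alone, with at least 1 CPM in each of its libraries and 4 times the highest library of the other 4 cultures. There were 4 in NPC P5, 3 in NPC P15, 44 in NPC P30, 8 in NPC P15 D2 and 0 in NPC P15 D3. The genes named here were chosen after their values were seen. Beside Trap1a, those of NPC P15 were Gsg1l (24.4 CPM, and 0.00982 CPM in ESC) and the X-linked Rtl8b (7.92 CPM, and 1.52 CPM in ESC). Those of NPC P5 were Rhox5 and Fmr1nb, both X-linked, with the growth factor Mdk (40.8 CPM) and Vxn (4.50 CPM). Of the 44 genes of NPC P30, 9 had at least 1 CPM in every ESC library and 1, Tex13b, was on the X chromosome.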

How the data were processed

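RiboTag RNA-seq counts of 107 mouse libraries in 23 groups were used, with groups and replicate numbers from the sample labels. The authors deposited raw counts per gene, listed by NCBI Entrez identifier, made from reads trimmed with Trimmomatic, aligned to mm10 with HISAT2 and counted with featureCounts, as the submitters' processing notes and the paper's methods state. Even numbers are in excess among counts of 1 to 20 in the paired libraries (53.1–73.8%, against 43.1–48.5% in single-read libraries), as counting each mate of a pair would give. Symbols and GRCm38 positions came from RefSeq and were found for 25275 of the 27179 genes. Reads of near-identical, overlapping or antisense genes cannot be separated. No pair of libraries was identical.

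CPM were counts over the library total. Of each group of replicates the mean and SD are over libraries. Groups were compared in 18 pairs with edgeR 4.0.16 in R 4.3.3 (quasi-likelihood F test, glmQLFit and glmQLFTest), on the libraries of both groups, after TMM scaling and filterByExpr at its minimum of 10 counts, with Benjamini-Hochberg adjustment over all genes tested and calls at an adjusted p below 0.01. The paper's methods name edgeR, TMM, this adjustment and the threshold. SE is the log2 fold change over the square root of F. Tests were tried on simulated data. A library at or under 3 counts was at the floor, and a fold against a group wholly at the floor is a bound. The floors, and the bounds taken from them, cover counting error only. Python 3.11.15 with pandas 2.3.3, numpy 2.4.6 and matplotlib 3.10.9 made the tables and plots.

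Named genes are the 8, the 15 with the highest Pearson r to Trap1a over group means of log2(CPM + 1) among genes of at least 1 CPM in a group, genes sharing its pattern, up to 5 genes per direction with the largest fold changes in each list, and up to 5 expressed neighbours within 1 Mb of Trap1a or Rhox5. The 8 genes and all lists were chosen with earlier results of these data known. Alternatives were DESeq2 1.42.0, its size factors, no filter and a stricter filter of 1 CPM, the replicate number as a block, other settings of the pattern and of the likeness, levels on the TMM scale, and fits that leave out 1 library at a time. Host astrocytes with the healthy libraries that hold Xist alone were added after seeing the data. Same-numbered libraries deviated together in 0 of the 18 comparisons, with correlations of pairs from −0.195 to 0.270. Immunohistochemistry, single-nucleus and protein data were not analysed here. Of the 15 genes nearest to Trap1a, 1 is not reported here.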

Additional observations from a re-analysis of the deposited data

Results flagged for a closer look

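Rhox5 moved in opposite directions in 2 passages of the same derivation when each was set against ESC. It was higher than ESC in NPC P5 (856 ± 26.1 against 490 ± 21.4 CPM, SD, n = 4 each) and lower than ESC in NPC P15 (70.1 ± 4.95 CPM, SD, n = 4), in 4 of 4 libraries each way. The difference between the passages was tested directly, and NPC P15 lay below NPC P5 by a log2 fold change of −3.60 (SE 0.05, edgeR adjusted p = 4.2e-22). In the 23 pairs of gene and group with 4 to 10 libraries and a mean of at least 1 CPM, no library stood apart from the others by Dixon's 95% criterion, which chance meets in about 5% of such sets.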

How the results depend on the processing

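Most comparisons of the 8 genes other than Trap1a and Asz1, which were not tested, kept their direction and their side of the threshold. They did so in 252 of 257 alternative fits and in 399 of 414 fits that left out 1 library. The 5 other alternative fits were Rhox5 and Sycp3 with 20% FBS, each with no filter and with the replicate block, and Rhox5 in graft SCI 14 d against 5 d with the block. Many of the fits set NPC against ESC for genes that had to differ, and so had little room to change. The count of genes called moved by over 1.5 times as follows, and the cause was not tested. With DESeq2 it went from 979 to 3619 for IGF-1, from 1312 to 2555 for 1% FBS, from 734 to 1918 for graft SCI 14 d against uninjured, from 666 to 1732 for dSCI against uninjured and from 811 to 1775 for graft SCI 14 d against 5 d. With the replicate block it was 1 for IGF-1, 833 for 1% FBS, 35 for dSCI, 269 for graft SCI 14 d against 5 d and 4251 for host astrocytes, from 6933. With the 2 healthy libraries that hold Xist it was 3015. Of the 8 genes, 2 were called with 20% FBS, and 0 with no filter, a stricter filter or the replicate block, and the 1 called in graft SCI 14 d against 5 d was 0 with the block. The replicate numbers do not pair the libraries, and the block changed no other call on the 8 genes. Leaving out 1 library gave 2027–6049 genes for CNTF, from 2961, 0–5724 for IGF-1, 628–1975 for 1% FBS, 232–1576 for graft SCI 14 d against uninjured, 197–864 for dSCI and 350–1191 for graft SCI 14 d against 5 d, and 0–1 of the 8 genes with 20% FBS. The log2 fold change of Sycp3 in dSCI against uninjured, 0.18, ran from −0.16 to 0.39 over the libraries left out, and was below 0 without uninjured replicate 1 (−0.14) and without dSCI replicate 3 (−0.16). The TMM scale moved Trap1a in NPC P15 from 216 to 194.2 CPM. Of the 15 genes most like Trap1a, 8 stayed with a pseudocount of 0.1, 0 with Spearman's rho and 5 with no minimum. Depth limits Asz1, Tex101 and the single-read groups most.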

Other observations

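Some genes of the germline lists were measured outside ESC and NPC cultures. Tex11, an X-linked meiotic gene, was at 3.74–10.6 CPM (mean 6.54) in healthy host astrocytes, near its 5.10–7.29 CPM in ESC, and at 2.84–4.39 CPM after SCI. It was lower after SCI (log2 fold change −1.03, SE 0.26, edgeR adjusted p = 0.0031), and no NPC library held more than 0.0742 CPM. Like Sycp3, it was thus present in ESC and in host astrocytes and low in NPC cultures. Piwil4, of the piRNA pathway, was higher after SCI (log2 fold change 3.18, SE 0.77, edgeR adjusted p = 0.0021), as were Tdrd9 (3.83, SE 0.98) and Dmrtb1 (2.45, SE 0.46). In all, 3 of 28 germline genes tested in the host were higher and 2 lower, beside 41.1% of all genes called. Of the silencing machinery in the host 10 of 34 were higher and 4 lower, a share close to the 41.1% of all genes called, with the largest rise in Uhrf1 (2.05, SE 0.27). The healthy and SCI libraries also differed in Xist and in markers of other cell types, as given above. The part of either in these host calls, from Tex11 to Uhrf1, was not tested.

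Xlr3a, an X-linked gene of a family related to Sycp3, had no read in the NPC cultures or in SPONT and a mean of 0.880 CPM with 20% FBS, 0.861 CPM with 10% FBS and 0.182 CPM with 5% FBS. It was noticed for that pattern and passed the filter on low counts through the 20% FBS libraries alone, so no test is given. Of the silencing machinery with 20% FBS 17 of 34 were lower and 3 higher, near the 55.5% of all genes called there, and the largest falls were those of Uhrf1 (log2 fold change −2.82, SE 0.12), the partner of Dnmt1, and Dnmt1 (−1.19, SE 0.08).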
